A study of Rattus norvegicus with 3 samples.

Results

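Endothelial cells of the rat brain were followed as nuclei picked by marker genes, in brains taken 7 h after an injection of saline, bacterial lipopolysaccharide (LPS) or poly(I:C). A nucleus was taken as endothelial when it held at least 3 UMIs (unique molecular identifiers, one per captured RNA molecule) summed over the markers Adgrl4, Mecom, Ptprb, Cyyr1, Tek, Vwf and Cdh5, with at least 2 of these genes detected. It could hold at most 2 UMIs over the neuronal genes Syt1, Snap25 and Rbfox3, and at most 1 UMI over the pericyte and fibroblast genes Pdgfrb, Abcc9, Notch3, Atp13a5, Dcn and Col1a2. The rule also lists Flt1, which was not among the feature names used here, so 7 of its 8 marker genes were applied. It found 525 of 51647 barcodes. Of these, 256 were in the saline library (1.01% of 25435 barcodes, 95% exact binomial interval 0.887 to 1.14%), 134 in the LPS library (1.20% of 11211, 1.002 to 1.41%) and 135 in the poly(I:C) library (0.900% of 15001, 0.755 to 1.06%).

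The study compared single-nucleus RNA of the brain between 3 conditions, each read from a single 10x Genomics 5′ library. All animals were wild-type female Crl:CD(SD) rats from Charles River, 12 weeks old. Each received an intraperitoneal injection, either saline or LPS (5 mg/kg) or poly(I:C) (12 mg/kg), and the nuclei of 4 animals were pooled into each library. LPS comes from the outer membrane of Gram-negative bacteria, and poly(I:C) is a synthetic double-stranded RNA that stands in for a virus. Because a condition is a single pool, no test between conditions can be made and the spread between animals is unknown. Each ratio below therefore compares 2 libraries, and its 95% interval (exact, conditional on the summed counts) covers counting error only.

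Brain endothelial cells line the vessels and form the blood-brain barrier: tight junctions seal the gaps between them, vesicle traffic across them is low, and carriers and efflux pumps decide which solutes pass. They face the blood directly, and so meet circulating microbial products and cytokines before the brain's own cells do. Toll-like receptor and cytokine signals act on them through NF-kB and STAT3, and interferons act through receptors of their own. Activated endothelium secretes chemokines and displays adhesion molecules that hold passing leukocytes.

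The label was checked on 30 further endothelial genes that the rule does not use. Of these 27 were among the feature names, and their summed level in the picked nuclei was 9325 CPM (UMIs scaled to 1000000 per library) in saline, 9978 in LPS and 7732 in poly(I:C), against 1476, 1401 and 1342 CPM in all other barcodes of the same libraries. Singly, 24, 25 and 23 of the 27 were higher in the picked nuclei than outside. The marker genes of the rule itself, which is a description only, were at 7587, 8973 and 7376 CPM inside and 98.2, 63.0 and 72.0 CPM outside. The rule's edge was not sharp: barcodes with exactly 3 marker UMIs numbered 51, 13 and 25 and had 7703, 5474 and 6215 CPM of the further endothelial genes, while barcodes with 2 marker UMIs that passed every other limit numbered 53, 19 and 36 and had 7182, 7244 and 5286 CPM. At the neuronal limit, nuclei with 2 such UMIs numbered 37, 9 and 11 (8254, 8128 and 5850 CPM of the further endothelial genes) and barcodes just outside, with 3, numbered 7, 2 and 7 (5929, 2194 and 3903 CPM). At the pericyte and fibroblast limit, nuclei with 1 such UMI numbered 86, 45 and 50 (9989, 9984 and 7297 CPM) and barcodes just outside, with 2, numbered 65, 25 and 31 (7898, 10876 and 6466 CPM). Barcodes just outside the last limit thus carried the further endothelial genes at levels close to those inside.

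The picked nuclei were shallow. Their median was 697 UMIs in saline, 863 in LPS and 598 in poly(I:C), against 1165, 2436 and 1264 over all barcodes, and they held 203103, 128383 and 92733 UMIs in all. One UMI was therefore worth 4.92, 7.79 and 10.8 CPM, and a gene with no UMI could still have been present at up to 14.8, 23.4 and 32.4 CPM (3 counts). Mitochondrial genes took 1.60, 1.34 and 1.08% of their UMIs, against 0.0813, 0.0753 and 0.0481% over all barcodes. Saline and LPS shared 420 barcode sequences, saline and poly(I:C) 550 and LPS and poly(I:C) 247. Of these sequences, 0 were picked in both libraries of a pair. Sequences picked in only 1 library of a pair were not counted.

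RNA of other cell types was present and moved between libraries. Pericyte and smooth muscle markers summed to 3816, 3139 and 3203 CPM in saline, LPS and poly(I:C), and came mostly from Rgs5, seen in 74.6, 67.9 and 67.4% of the nuclei. Neuronal genes were at 7346, 4331 and 6287 CPM, against 43972, 43146 and 43731 CPM outside. Haemoglobin and other red-cell genes were at 9030, 6426 and 5133 CPM, and 45, 15 and 12 nuclei with at least 5 haemoglobin UMIs held 94.6, 94.4 and 89.1% of the haemoglobin UMIs. Neutrophil genes were at 4.92, 1309 and 1089 CPM, with S100a8 and S100a9 UMIs in 0, 5 and 10 nuclei. Astrocyte genes were at 335, 1145 and 399 CPM, oligodendrocyte genes at 659.8, 1262 and 464 CPM and microglial genes at 222, 499 and 377 CPM. The neutrophil, astrocyte, oligodendrocyte and microglial levels were highest in LPS and moved in the same direction as several inflammatory lists below. Their part in those results was not tested, and the list counts are also given without the nuclei that carry such blood or immune RNA.

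Compared with saline, the LPS nuclei had far more RNA of the CXCR3 chemokines, of acute-phase and NF-kB target genes and of interferon-stimulated genes, and far less of blood-brain barrier transporters. Over all genes with at least 20 UMIs in the 2 libraries, 450 of 4166 (10.8%) were higher by 2-fold or more and 499 (12%) lower by as much. The median log2 ratio was -0.02. Against that background, 21 of 21 measured acute-phase genes, 29 of 36 interferon-stimulated genes, 14 of 17 NF-kB targets and 9 of 15 genes of MHC class I presentation were at least 2-fold higher, and 0 of any of these 4 lists were at least 2-fold lower. The same list counts ran the other way for blood-brain barrier transporters (14 of 23 lower, 1 higher) and capillary genes (6 of 7 lower, 0 higher). A gene near 0 in 1 library reaches the minimum of 20 UMIs only through the other library, where it is high. For lists of such genes, the shares were therefore partly set in advance. Of 81 interferon-stimulated genes found, 36 were measured, and of 40 acute-phase genes 21. The lists were also chosen with earlier results of these data known. An interval that left out 1 was found for 398 of the higher and 366 of the lower genes. Without nuclei that held at least 2 UMIs of immune or red-cell markers, the count was 17 interferon-stimulated genes and 9 NF-kB targets on the higher side and 13 transporters on the lower. These came from fewer measured genes, 2917 in place of 4166, and their share of each list was not computed.

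In the poly(I:C) nuclei the interferon-stimulated genes stood highest over saline, and the same 2 groups of barrier and capillary genes were low. At least 2-fold higher than saline were 456 of 3674 measured genes (12.4%), at least 2-fold lower were 696 (18.9%), and the median log2 ratio was -0.21. Of the interferon-stimulated genes 55 of 56 were higher and 0 lower, with a median log2 ratio of 4.25. Of 81 found, 56 were measured, and members near 0 in saline were measured only because poly(I:C) was high. The count was 18 of 19 for acute-phase genes, 15 of 17 for MHC class I genes and 9 of 10 for NF-kB targets, with 0 lower in each. Blood-brain barrier transporters had 15 of 23 lower and 1 higher, and capillary genes 7 of 7 lower. Without nuclei that held at least 2 UMIs of immune or red-cell markers, the count was 44 interferon-stimulated genes and 4 NF-kB targets on the higher side and 14 transporters on the lower. Genes measured then numbered 2470 in place of 3674, so fewer list members could be called. The share of each list that these counts make up was not computed. When 2 counts were added to every gene in both libraries, the share of genes that were higher among those 2-fold apart went from 39.6 to 52.1%, and with a minimum of 50 UMIs in place of 20 the counts were 194 higher and 232 lower.

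Set directly against poly(I:C), the LPS nuclei had less RNA of nearly all interferon-stimulated genes and more of other genes, among them Lcn2, Cxcl1, Apcdd1 and Vim. Of 2774 genes measured in the pair, 304 (11%) were higher in LPS by 2-fold or more and 265 (9.55%) lower by as much. The median log2 ratio was 0.12. Of the interferon-stimulated genes 52 of 60 were lower in LPS and 0 higher. Members near 0 in LPS were measured here only through poly(I:C). For the acute-phase genes the count was 2 higher and 0 lower of 21, for NF-kB targets 4 higher and 1 lower of 17, and for blood-brain barrier transporters 2 higher and 0 lower of 14. LPS and poly(I:C) were both read against the same saline library, so the counts against saline are not independent of each other. With a minimum of 50 UMIs in place of 20, the share of genes higher in LPS among those 2-fold apart went from 53.4 to 33.5%, and with 2 counts added to 43.3%.

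**Figure D1:**
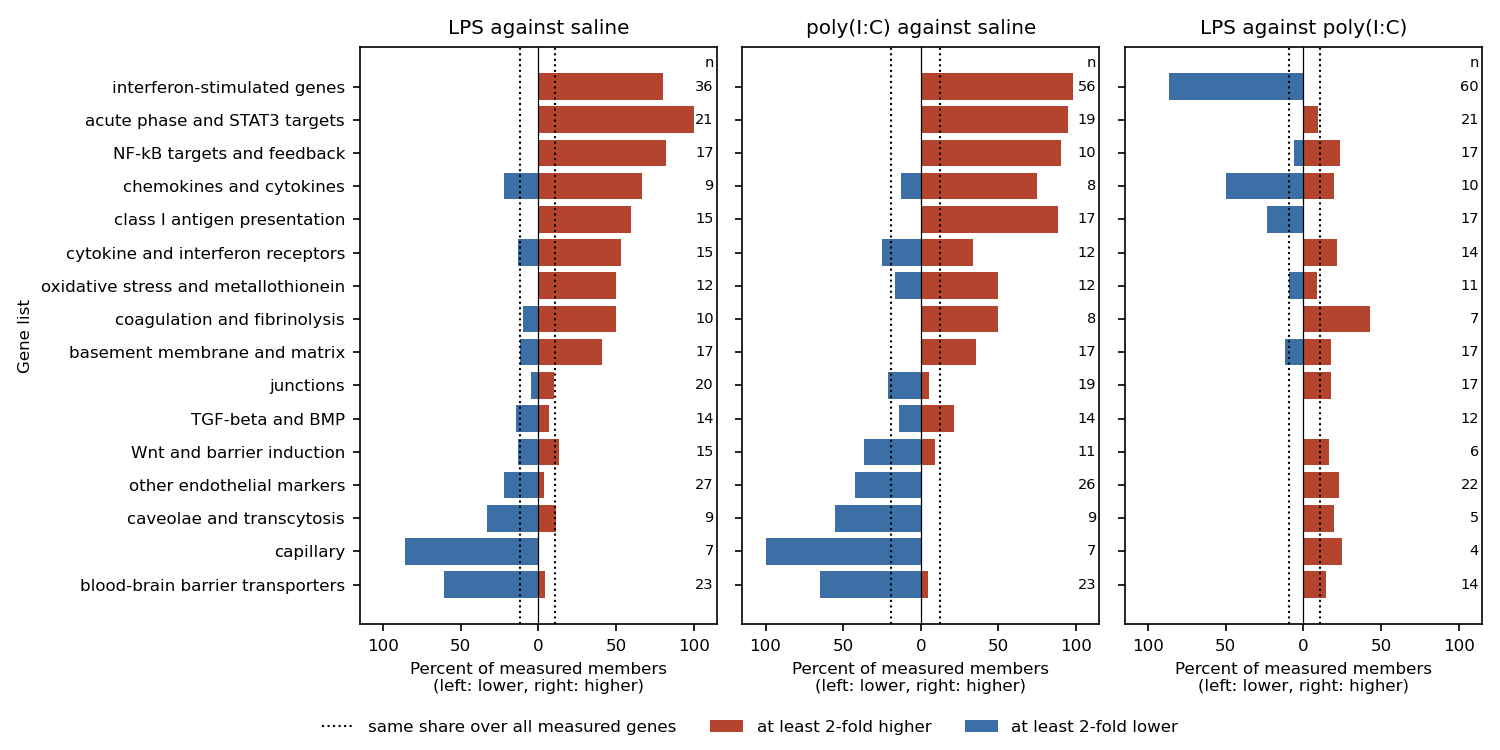
Percentage of the measured genes of each list (n at the right) that were higher (red, to the right) or lower (blue, to the left) by 2-fold or more in each of the 3 comparisons of endothelial nuclei, with dotted lines at the same share over all measured genes. Interferon-stimulated genes reach 55 of 56 higher in poly(I:C) and 29 of 36 in LPS, while capillary genes and blood-brain barrier transporters lie on the lower side of both comparisons with saline.

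The chemokines Cxcl9, Cxcl10 and Cxcl11, which draw CXCR3-bearing T and NK cells, were nearly absent from saline nuclei. Cxcl10 had 0 UMIs in saline, 84 in LPS (654 CPM) and 858 in poly(I:C) (9252 CPM). Set against the 3 counts a zero allows, it was at least 44.3-fold above saline in LPS and at least 626-fold in poly(I:C), and 14.1-fold lower in LPS than in poly(I:C) (11.3 to 17.9). Cxcl11 had 0, 380 and 1227 UMIs (0, 2959.9 and 13232 CPM), at least 200.4-fold above saline in LPS and at least 896-fold in poly(I:C), and 4.47-fold lower in LPS than in poly(I:C) (3.98 to 5.03). Cxcl9 had 1, 230 and 284 UMIs (4.92, 1792 and 3063 CPM), a ratio to saline of 364 (64.7 to 14434) in LPS and 622 (111 to 24654) in poly(I:C). The gap between the treatments was therefore large for Cxcl10 and 1.71-fold (1.43 to 2.04) for Cxcl9. Outside the picked nuclei the same RNA was scarce: Cxcl11 was at 0, 22.3 and 127 CPM and Cxcl10 at 0, 5.94 and 83.5 CPM.

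Promoters are shown for Cxcl10, Cxcl11 and Rsad2, which were more than 4-fold lower in LPS than in poly(I:C), and for Lcn2, which was higher by more than 4-fold. Each promoter shown holds a match, and other genes more than 4-fold lower in LPS, such as Mx1 and Cmpk2, are not shown. Each runs from 250 bases before to 50 bases after the gene start (RefSeq, build GRCr8, whose coordinates are not those of the build the counts were made on). Capitals mark matches to the core of the interferon-stimulated response element, spelled GAAANNGAAA, or to the NF-kB consensus, both searched on either strand. Cxcl10 (chr14:15988816-15989115, plus strand) holds an interferon element that begins 243 bases before the start and an NF-kB match at 187. Cxcl11 (chr14:15973478-15973777, plus strand) holds an NF-kB match at 74. Rsad2 (chr6:48788071-48788370, minus strand) holds an interferon element at 147, and Lcn2 (chr3:36081731-36082030, minus strand) an NF-kB match at 242, both on the strand opposite to the gene.
Cxcl10: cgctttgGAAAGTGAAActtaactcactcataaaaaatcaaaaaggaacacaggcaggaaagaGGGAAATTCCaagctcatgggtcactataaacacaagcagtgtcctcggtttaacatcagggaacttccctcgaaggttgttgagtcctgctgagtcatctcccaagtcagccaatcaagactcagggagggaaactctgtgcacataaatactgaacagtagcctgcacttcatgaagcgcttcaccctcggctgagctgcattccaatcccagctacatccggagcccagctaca
Cxcl11: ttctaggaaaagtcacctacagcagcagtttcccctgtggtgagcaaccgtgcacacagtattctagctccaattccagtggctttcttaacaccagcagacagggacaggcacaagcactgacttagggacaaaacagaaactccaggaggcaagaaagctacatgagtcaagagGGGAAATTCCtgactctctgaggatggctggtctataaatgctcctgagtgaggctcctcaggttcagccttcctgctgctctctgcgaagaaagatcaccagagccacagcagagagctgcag
Rsad2: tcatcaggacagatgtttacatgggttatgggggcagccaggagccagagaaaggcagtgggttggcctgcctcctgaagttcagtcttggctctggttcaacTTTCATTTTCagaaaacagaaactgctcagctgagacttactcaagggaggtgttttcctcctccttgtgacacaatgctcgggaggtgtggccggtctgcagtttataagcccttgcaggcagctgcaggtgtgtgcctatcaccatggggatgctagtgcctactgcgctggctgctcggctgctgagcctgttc
Lcn2: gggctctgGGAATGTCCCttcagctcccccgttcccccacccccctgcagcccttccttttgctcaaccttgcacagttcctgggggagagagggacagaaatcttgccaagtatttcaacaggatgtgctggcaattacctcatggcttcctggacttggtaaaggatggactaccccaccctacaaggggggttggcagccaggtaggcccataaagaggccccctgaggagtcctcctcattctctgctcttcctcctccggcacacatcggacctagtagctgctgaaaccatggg
Over all 33469 promoters of the same length, 1312 (3.92%) hold the interferon element and 1400 (4.18%) the NF-kB consensus. The windows of Cxcl9 and of the transporter gene Slco1a4 hold neither. Among the 10 genes ranked highest over saline (those whose interval ends farthest from 1), 8 had a promoter in the table in each comparison. Of those 8, the interferon element was in 1 for LPS (Cxcl10) and in 4 for poly(I:C) (Cxcl10, Gbp2, Isg20 and Rsad2), and the NF-kB consensus in 4 for LPS (Cxcl1, Cxcl10, Cxcl11 and Lcn2) and in 2 for poly(I:C). Of the 9 promoters found for the 10 lowest genes, the interferon element was in 0 for either treatment, and the NF-kB consensus in 0 for LPS and in 1 (Ccn2) for poly(I:C). For LPS against poly(I:C), 8 promoters were found for the 10 lowest genes. The interferon element was in 3 (Cxcl10, Gbp1 and Rsad2) and the NF-kB consensus in 2 (Cxcl10 and Oasl). For the 10 highest genes 7 were found, with the interferon element in 0 and the NF-kB consensus in 2 (Lcn2 and Vim). A match is only a run of letters and says nothing about binding.

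Of the listed chemokines and cytokines, 6 of 9 measured were at least 2-fold higher and 2 lower in LPS than in saline, and 6 of 8 higher and 1 lower in poly(I:C). Those counts stand beside 10.8% higher and 12% lower over all genes in LPS, and 12.4 and 18.9% in poly(I:C). The neutrophil attractants Cxcl1 and Cxcl2 were highest in LPS: Cxcl1 had 0, 50 and 9 UMIs (0, 389 and 97.1 CPM), at least 26.4-fold higher in LPS than in saline and 4.01-fold (1.95 to 9.28) higher than in poly(I:C). Cxcl2 had 0, 27 and 3 UMIs, at least 14.2-fold higher in LPS than in saline. Cxcl12, the chemokine that brain vessels make at rest, went the other way, with 790, 89 and 83 UMIs (3889.7, 693 and 895 CPM), 5.61-fold (4.50 to 7.07) lower in LPS and 4.35-fold (3.46 to 5.52) lower in poly(I:C). Il15, a growth factor of NK and memory T cells, had 30, 5 and 41 UMIs, 3.79-fold lower in LPS (1.46 to 12.5) and 2.99-fold higher in poly(I:C) (1.82 to 4.96). Tnfsf10, which encodes the death ligand TRAIL, had 8, 2 and 38 UMIs and was 10.4-fold (4.78 to 25.8) higher in poly(I:C). The interleukin gene Il6 had 0 UMIs in all 3 libraries.

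**Figure D2:**
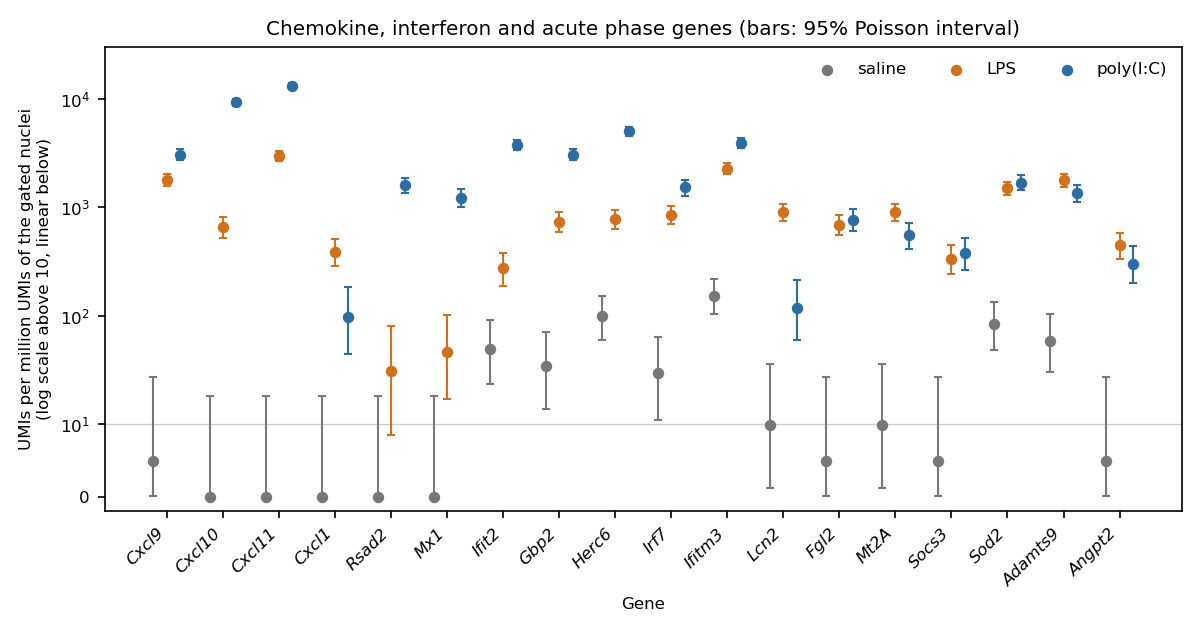
Level of named chemokine, acute-phase and interferon-stimulated genes in endothelial nuclei of each library, in CPM on an axis that is logarithmic above 10 and linear below, with 95% exact Poisson intervals as bars. Cxcl10 stands at 654 CPM in LPS and 9252 CPM in poly(I:C), whereas Lcn2 stands at 896 and 119 CPM.

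Interferon-stimulated genes, the antiviral programme that interferon receptors switch on, split by how far LPS reached. Rsad2 encodes viperin, an enzyme that blocks viral replication, and had 0, 4 and 148 UMIs (0, 31.2 and 1596 CPM), at least 108-fold higher in poly(I:C) than in saline and 51.2-fold (19.6 to 190.5) lower in LPS than in poly(I:C). The antiviral GTPase Mx1 had 0, 6 and 114 UMIs, 26.3-fold (11.7 to 73.2) lower in LPS than in poly(I:C), and the mitochondrial nucleotide kinase Cmpk2 had 2, 5 and 122 UMIs, 33.8-fold (14.1 to 106) lower. Ifit2, which binds viral RNA, had 10, 35 and 345 UMIs (49.2, 273 and 3720.4 CPM), 5.54-fold (2.68 to 12.5) higher than saline in LPS and 75.6-fold (40.6 to 159) in poly(I:C). For these 4 genes the poly(I:C) level was more than 10-fold that of LPS. Others were closer. The transcription factor Irf7 had 6, 110 and 141 UMIs (29.5, 857 and 1520.5 CPM), 1.77-fold (1.37 to 2.30) lower in LPS than in poly(I:C), and Ifitm3, which blocks viral entry, had 31, 292 and 366 UMIs (153, 2274 and 3947 CPM), 1.74-fold (1.48 to 2.03) lower. The guanylate-binding protein Gbp2 lay between, with 7, 94 and 283 UMIs (34.5, 732 and 3052 CPM), 4.17-fold (3.29 to 5.32) lower in LPS. Isg15, a ubiquitin-like protein, had 0, 17 and 65 UMIs, at least 47.5-fold higher in poly(I:C) than in saline, and Ifi27 had 87, 176 and 108 UMIs, 3.20-fold (2.46 to 4.19) and 2.72-fold (2.03 to 3.65) above saline. Slfn4, of the schlafen family and not itself on the list, had 0, 65 and 238 UMIs, at least 34.3-fold higher in LPS and at least 174-fold higher in poly(I:C) than in saline, and was 5.07-fold (3.84 to 6.78) lower in LPS than in poly(I:C). The exonuclease gene Isg20 had 0, 11 and 66 UMIs, at least 48.2-fold above saline in poly(I:C) and 8.31-fold (4.35 to 17.4) lower in LPS than in poly(I:C). The GTPase Mx2 had 6, 24 and 138 UMIs, Oasl, of the oligoadenylate synthetase family, had 1, 9 and 72, and the guanylate-binding protein Gbp1 had 0, 1 and 24. These 3 were 7.96-fold (5.13 to 12.8), 11.1-fold (5.52 to 25.2) and 33.2-fold (5.42 to 1366) lower in LPS than in poly(I:C). Herc6, which attaches ubiquitin-like tags, had 20, 100 and 466 UMIs (98.5, 779 and 5025 CPM), 6.45-fold (5.19 to 8.09) lower in LPS than in poly(I:C). The 81 listed genes found summed to 3333, 15259 and 55924 CPM in the picked nuclei and to 401, 563 and 1776 CPM outside them.

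Antigen presentation through MHC class I, which shows cell peptides to CD8 T cells, was higher in both treated libraries. B2m, the invariant light chain, had 279, 687 and 586 UMIs (1374, 5351 and 6319 CPM), 3.90-fold (3.38 to 4.49) higher in LPS and 4.60-fold (3.98 to 5.32) in poly(I:C). The class I gene RT1-S3 had 20, 72 and 71 UMIs, 5.70-fold (3.43 to 9.87) and 7.78-fold (4.68 to 13.5) higher, although RT1 genes are near-copies of each other and reads may be split between them. Immunoproteasome subunits cut the peptides: Psmb8 had 6, 28 and 67 UMIs, Psmb9 had 11, 48 and 47, and Psmb10 had 4, 28 and 24. Of these subunits only Psmb8 differed by 2-fold or more between the treatments, at 3.31-fold (2.10 to 5.35) lower in LPS. Nlrc5, the class I transactivator, had 1, 13 and 33 UMIs, a poly(I:C) to saline ratio of 72.3 (12.1 to 2940.2). MHC class II genes had 21, 17 and 16 UMIs in all, and none of them was counted often enough to be measured.

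Acute-phase genes and NF-kB targets reached similar levels in the treated libraries, with a few exceptions, most of them highest in LPS. Lcn2, the iron-scavenging lipocalin, had 2, 115 and 11 UMIs (9.85, 896 and 119 CPM), 91.0-fold (24.6 to 760.1) higher in LPS than in saline and 7.55-fold (4.07 to 15.6) higher than in poly(I:C). Bcl3, a nuclear partner of NF-kB, had 1, 34 and 8 UMIs, 3.07-fold (1.39 to 7.68) higher in LPS than in poly(I:C). Ier3, an early-response NF-kB target, was the 1 member at least 2-fold lower in LPS than in poly(I:C), with 5, 10 and 15 UMIs and a ratio of 2.08-fold whose interval took in 1 (0.873 to 5.17). Sod2, the mitochondrial superoxide dismutase, had 17, 192 and 156 UMIs (83.7, 1496 and 1682 CPM), 17.9-fold (10.9 to 31.3) above saline in LPS and 20.1-fold (12.2 to 35.4) in poly(I:C). Socs3, the feedback inhibitor of STAT3, had 1, 43 and 35 UMIs. Ptgs2, the cyclooxygenase behind fever-inducing prostaglandin, had 2, 41 and 32, and Nfkbia, the inhibitor of NF-kB, had 169, 276 and 157 (2.58- and 2.03-fold above saline). For Sod2, Socs3 and Ptgs2 the interval of the LPS to poly(I:C) ratio took in 1. Other acute-phase members were nearly absent from saline: Fgl2, a fibrinogen-like prothrombinase, had 1, 88 and 71 UMIs, and the transglutaminase Tgm2 had 3, 88 and 78. Mt2A, a metallothionein that belongs to the glucocorticoid and oxidative stress lists, had 2, 115 and 51. Complement factor B, Cfb, had 23, 125 and 157 UMIs, 8.60-fold (5.48 to 14.1) and 15.0-fold (9.61 to 24.3) above saline.

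Tlr4, Cd14 and Tlr3 were barely counted, while several cytokine receptors were higher in both treated libraries. Of the cytokine and interferon receptor genes, 8 of 15 measured were at least 2-fold higher than saline and 2 lower in LPS, and 4 of 12 higher and 3 lower in poly(I:C). Over all genes 10.8% were higher and 12% lower in LPS, the latter near the receptor count, and 12.4 and 18.9% in poly(I:C). Tlr4, the LPS receptor, had 2, 1 and 0 UMIs, its partner Cd14 had 1, 1 and 0, and Tlr3, a receptor for double-stranded RNA, had 4, 1 and 7, so none could be compared at this depth. Ifih1, which encodes the cytosolic double-stranded RNA sensor MDA5 and is itself an interferon-stimulated gene, had 7, 16 and 55 UMIs, 3.62-fold (1.41 to 10.4) above saline in LPS and 17.2-fold (7.82 to 44.8) in poly(I:C). The RNA sensor RIG-I, gene Ddx58, named after its values were seen, had 13, 20 and 53 UMIs, 2.43-fold (1.15 to 5.32) and 8.93-fold (4.80 to 17.9) above saline. Il1r1, the interleukin-1 receptor, had 22, 55 and 20 UMIs (108, 428 and 216 CPM), 3.96-fold (2.37 to 6.81) above saline in LPS and 1.99-fold (1.03 to 3.82) in poly(I:C). The shared interleukin-6 family chain Il6st had 23, 99 and 41 UMIs, 6.81-fold (4.29 to 11.2) and 3.90-fold (2.29 to 6.82) above saline, and the oncostatin M receptor Osmr had 19, 70 and 71, 5.83-fold (3.47 to 10.3) and 8.18-fold (4.88 to 14.4). Tnfrsf1a, the main TNF receptor, had 5, 23 and 14 UMIs, 7.28-fold (2.71 to 24.5) higher in LPS. The interferon receptor chain Ifnar1 was lower in both, with 175, 51 and 36 UMIs (862, 397 and 388 CPM), 2.17-fold (1.58 to 3.02) and 2.22-fold (1.54 to 3.27), and Ifnar2, with 53, 24 and 20 UMIs, stayed within 2-fold. Lepr, the leptin receptor, had 28, 1 and 0 UMIs, which made it 17.7-fold (2.93 to 724) lower in LPS and at least 4.26-fold lower in poly(I:C).

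Transporters of the blood-brain barrier had more members at least 2-fold lower by number than any other list examined, in either treatment against saline. By share of measured genes the capillary list was lower more often (6 of 7 against 14 of 23 in LPS, 7 of 7 against 15 of 23 in poly(I:C)), and 4 of its 7 measured genes (Slc22a8, Slc7a1, Slc7a5 and Tfrc) are also counted as transporters. Slco1c1, the carrier of thyroxine, had 330, 6 and 2 UMIs (1625, 46.7 and 21.6 CPM), 34.8-fold (15.8 to 95.4) lower in LPS and 75.3-fold (20.7 to 625) lower in poly(I:C). Slco1a4, a carrier of organic anions, had 397, 32 and 14 UMIs (1955, 249 and 151 CPM), 7.84-fold (5.47 to 11.6) lower in LPS and 12.9-fold (7.63 to 23.9) lower in poly(I:C), while the interval of the LPS to poly(I:C) ratio took in 1 (1.65, 0.856 to 3.35). Slc7a5, the light chain of the carrier of large neutral amino acids, had 126, 6 and 2 UMIs, 13.3-fold (5.93 to 36.9) and 28.8-fold (7.80 to 240.1) lower, whereas the heavy chain Slc3a2 had 62, 67 and 29 UMIs and stayed within 2-fold. The transferrin receptor Tfrc had 115, 5 and 2 UMIs, 14.5-fold (6.05 to 45.6) and 26.3-fold (7.10 to 219) lower. Of the efflux pumps, which return drugs to the blood, Abcg2 had 214, 18 and 9 UMIs (1054, 140.2 and 97.1 CPM), 7.52-fold (4.64 to 12.9) and 10.9-fold (5.61 to 24.1) lower. Abcb1b, a rodent gene of P-glycoprotein named after its values were seen, had 295, 64 and 34 UMIs, 2.91-fold (2.22 to 3.88) and 3.96-fold (2.77 to 5.83) lower. Summed, the 34 transporters found were at 15322, 6052 and 3958 CPM in the picked nuclei and at 1208, 983 and 983 CPM outside.

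Vessel zone was described by giving a nucleus to the arterial, capillary or venous list when that list had at least 2 UMIs and at least 2 times those of either other list. By this count 24.6, 3.73 and 3.70% of the nuclei were capillary and 21.1, 60.4 and 50.4% venous in saline, LPS and poly(I:C). The venous list rested mostly on 1 gene, Ptprg, with 713 of its 886 UMIs in saline, 365 of 593 in LPS and 156 of 303 in poly(I:C). Summed, the venous list was at 4362, 4619 and 3267 CPM in the picked nuclei and at 1379, 1281 and 1292 CPM outside. The capillary list was at 4544, 1246 and 841 CPM in the picked nuclei. The capillary list shares genes with the transporters and was itself lower, so these classes are not independent of the transporter counts, and zone make-up and level per nucleus cannot be told apart. Within the 54, 81 and 68 nuclei classed as venous, Slco1c1 was at 1418, 38.8 and 41.6 CPM (63, 3 and 2 UMIs). In the same nuclei Slco1a4 was at 1958, 219.6 and 104 CPM (87, 17 and 5 UMIs). Both carriers were lower in the treated libraries within that class. The class is set against the capillary list, which was itself lower, so its nuclei need not be of the same zone in each library. The part of zone make-up in the lower carrier levels was not tested.

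Not every carrier was low. Slc2a1, the glucose transporter GLUT1, had 281, 233 and 73 UMIs (1384, 1815 and 787 CPM), 1.31-fold (1.10 to 1.57) higher than saline in LPS and 1.76-fold (1.35 to 2.31) lower in poly(I:C), so LPS was 2.31-fold (1.77 to 3.04) above poly(I:C). Car4, a carbonic anhydrase on the capillary surface, showed the same order, with 44, 47 and 7 UMIs, 4.85-fold (2.18 to 12.7) higher in LPS than in poly(I:C). The glutamate carrier Slc1a1 was the 1 transporter at least 2-fold higher than saline in either treatment, with 14, 51 and 30 UMIs, 5.76-fold (3.14 to 11.3) and 4.69-fold (2.41 to 9.58). Slc22a8, an organic anion exporter, had 58, 3 and 10 UMIs, 12.2-fold (3.98 to 61.0) lower in LPS and 2.65-fold (1.34 to 5.81) lower in poly(I:C). Among the capillary genes that are not transporters, the proteoglycan Spock2 had 272, 34 and 23 UMIs, 5.06-fold (3.53 to 7.45) and 5.40-fold (3.52 to 8.66) lower, and the cell-cycle regulator Rgcc, named after its values were seen, had 115, 29 and 22, 2.51-fold (1.66 to 3.91) lower in LPS and 2.39-fold lower in poly(I:C).

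**Figure D3:**
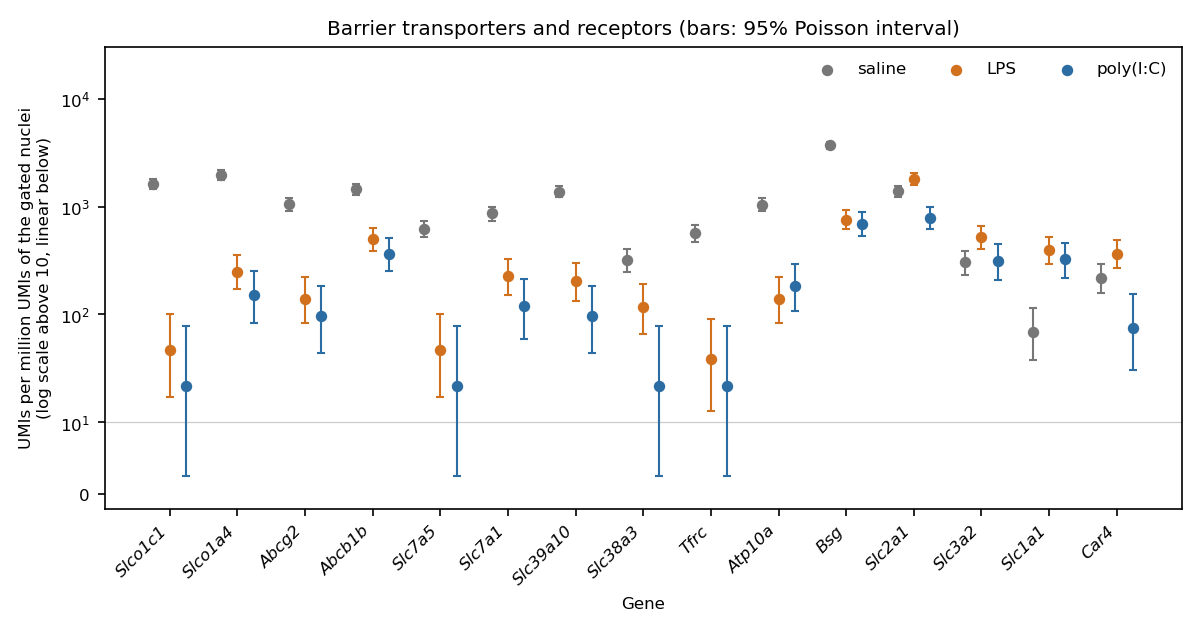
Level of named transporter and capillary genes in endothelial nuclei of the 3 libraries, in CPM on an axis that is logarithmic above 10 and linear below, with 95% exact Poisson intervals as bars. Slco1c1 stands at 1625 CPM in saline, 46.7 in LPS and 21.6 in poly(I:C), while Slc2a1 lies between 787 and 1815 CPM.

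Junction genes, in contrast, were near the background in LPS, with 2 higher and 1 lower of 20 measured against 10.8 and 12% over all genes. In poly(I:C) 1 was higher and 4 lower of 19, against 12.4 and 18.9% over all genes, the lower count being near that share. Tjp1, the scaffold protein ZO-1, had 401, 147 and 63 UMIs (1974, 1145 and 679 CPM), 1.72-fold (1.42 to 2.10) lower in LPS and 2.91-fold (2.22 to 3.85) lower in poly(I:C). Marveld2, which seals corners where cells meet, had 67, 6 and 5 UMIs, 7.06-fold (3.08 to 19.9) and 6.12-fold (2.50 to 19.5) lower. Jam2 had 77, 99 and 57 UMIs, 2.03-fold (1.49 to 2.78) higher in LPS, and the connexin Gja1, which is also among the astrocyte markers given above, had 13, 36 and 22, 4.38-fold (2.27 to 9.002) and 3.71-fold (1.79 to 8.01) higher. Cdh5, the cadherin of endothelial contacts, is one of the rule's own markers and is given as a description only: 37, 69 and 104 UMIs (182, 537 and 1122 CPM). The other markers of the rule were within 2-fold of saline in both treatments. Of the further endothelial genes used for the label check, 1 of 27 measured was at least 2-fold higher and 6 lower in LPS (10.8 and 12% over all genes), and 0 of 26 higher and 11 lower in poly(I:C) (12.4 and 18.9% over all genes), so lower members were more frequent than over all genes in both.

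Genes of caveolae, the membrane pits that carry cargo across endothelium, included lower ones. Cav1 had 48, 6 and 2 UMIs, 5.06-fold (2.16 to 14.5) and 10.96-fold (2.87 to 93.1) lower, and its coat partner Cavin2 had 63, 7 and 0, 5.69-fold (2.61 to 14.7) lower in LPS and at least 9.59-fold lower in poly(I:C). Of 9 measured, 1 was at least 2-fold higher and 3 lower in LPS, and 0 were higher and 5 lower in poly(I:C), where 12 and 18.9% of all genes were lower. Plvap, which marks leaky vessels, had 0 UMIs in every library. Of the Wnt pathway, which maintains the barrier, 2 of 15 measured genes were higher and 2 lower in LPS, and 1 of 11 higher and 4 lower in poly(I:C). The LPS counts were near the shares over all genes (10.8% higher and 12% lower). Apcdd1, a Wnt inhibitor, had 33, 134 and 27 UMIs, 6.42-fold (4.36 to 9.71) higher in LPS than in saline and 3.58-fold (2.36 to 5.64) higher than in poly(I:C). Lef1, a nuclear partner of beta-catenin, had 217, 93 and 47, 2.11-fold (1.53 to 2.95) lower in poly(I:C).

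Matrix and growth-factor genes included several that were higher. The secreted proteases Adamts9 and Adamts1, which cut matrix proteoglycans, had 12, 227 and 125 UMIs and 7, 88 and 30 UMIs, with LPS to saline ratios of 29.9 (16.8 to 58.8) and 19.9 (9.26 to 50.9). Basement-membrane collagen Col4a1 had 105, 189 and 102 UMIs, 2.85-fold (2.23 to 3.65) and 2.13-fold (1.60 to 2.82) higher, and Col4a2 had 31, 107 and 34, 5.46-fold (3.63 to 8.43) and 2.40-fold (1.43 to 4.04) higher. Laminin chain Lamc1 had 70, 154 and 108, 3.48-fold (2.61 to 4.69) and 3.38-fold (2.48 to 4.63) higher. Of 17 measured matrix genes, 7 were higher and 2 lower in LPS, and 6 higher and 0 lower in poly(I:C). All genes gave 10.8% higher and 12% lower in LPS, the latter near the matrix count, and 12.4 and 18.9% in poly(I:C). Angpt2, the Tie2 ligand that loosens vessels, had 1, 57 and 28 UMIs, with ratios to saline of 90.2 (15.5 to 3623) and 61.3 (10.1 to 2508), while the receptor Tie1 had 50, 14 and 4, 2.26-fold (1.23 to 4.42) and 5.71-fold (2.10 to 21.8) lower. Vim and Bcar3 were lower in poly(I:C) than in both other libraries. Vim, which encodes the intermediate filament vimentin, had 101, 106 and 9 UMIs (497, 826 and 97.1 CPM), 5.12-fold (2.59 to 11.5) lower in poly(I:C) than in saline, and the adaptor Bcar3 had 21, 21 and 0, at least 3.20-fold lower.

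The next lists cover vascular tone and flow sensing, oxidative stress, glucocorticoid response, complement and TGF-beta signalling, to be read against 10.8% higher and 12% lower over all genes in LPS and 12.4 and 18.9% in poly(I:C). Klf2, a transcription factor that flow keeps high, had 184, 52 and 70 UMIs (906, 405 and 755 CPM), 2.24-fold (1.64 to 3.10) lower in LPS. Nostrin, also on the vascular tone list, had 64, 13 and 5 UMIs, 3.11-fold (1.70 to 6.16) lower in LPS and 5.84-fold (2.38 to 18.6) lower in poly(I:C). Ramp3, a co-receptor for adrenomedullin, had 0, 20 and 2 UMIs, at least 10.5-fold higher in LPS than in saline, and the lipid receptor S1pr1 had 37, 60 and 45, 2.57-fold (1.68 to 3.98) and 2.66-fold (1.69 to 4.23) higher. Of the vascular tone genes 3 of 15 measured were higher and 3 lower in LPS, and 2 of 13 higher and 2 lower in poly(I:C), the latter near the shares over all genes. Of the oxidative stress genes the counts were 6 of 12 higher and 0 lower in LPS, and 6 of 12 higher and 2 lower in poly(I:C). These include thioredoxin, Txn1, with 42, 154 and 203 UMIs, 5.80-fold (4.10 to 8.37) and 10.6-fold (7.56 to 15.1) higher, and xanthine dehydrogenase, Xdh, with 27, 69 and 109, 4.04-fold (2.56 to 6.56) and 8.84-fold (5.76 to 14.0) higher. Of genes that glucocorticoids induce, 6 of 14 were higher and 4 lower in LPS, and 5 of 12 higher and 5 lower in poly(I:C). Complement had 4 of 6 higher and 0 lower in LPS and 2 of 4 higher and 0 lower in poly(I:C), while TGF-beta and BMP genes had 1 higher and 2 lower of 14 in LPS and 3 higher and 2 lower of 14 in poly(I:C). The TGF-beta and BMP counts in LPS were near the shares over all genes.

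Some of the lowest genes belonged to no transporter or junction class. Hmcn1, a large matrix protein, had 143, 19 and 2 UMIs (704, 148 and 21.6 CPM), 4.76-fold (2.94 to 8.13) lower in LPS and 32.6-fold (8.87 to 272) lower in poly(I:C). Ccn2, the connective tissue growth factor, had 149, 20 and 3 UMIs, 4.71-fold (2.94 to 7.93) and 22.7-fold (7.61 to 111) lower. Both had an LPS to poly(I:C) ratio whose interval left out 1, at 6.86 (1.66 to 60.8) and 4.82 (1.43 to 25.3). Itm2a, a membrane protein in none of the lists, had 324, 19 and 18 UMIs, 10.8-fold (6.79 to 18.1) and 8.22-fold (5.12 to 14.0) lower. The carboxypeptidase gene Agbl1 had 97, 3 and 5 UMIs, 20.4-fold (6.79 to 101) and 8.86-fold (3.67 to 27.9) lower, and Nxpe1 had 57, 2 and 2, at 18.0-fold (4.76 to 152) lower in LPS. Prom1, which encodes the membrane protein prominin, had 136, 9 and 3 UMIs, 9.55-fold (4.89 to 21.3) and 20.7-fold (6.93 to 102) lower. Among transporters the zinc carrier Slc39a10 had 279, 26 and 9 UMIs, 6.78-fold (4.53 to 10.6) and 14.2-fold (7.35 to 31.3) lower, and the lipid flippase Atp10a had 211, 18 and 17, 7.41-fold (4.58 to 12.7) and 5.67-fold (3.46 to 9.91) lower. For Slc39a10 and Atp10a the interval of the LPS to poly(I:C) ratio took in 1. Gpc5, a heparan sulfate proteoglycan, was lower in poly(I:C) than in the other libraries, with 47, 60 and 7 UMIs, 3.07-fold (1.38 to 8.04) below saline and 6.19-fold (2.83 to 16.1) below LPS. Apbb2 had 157, 142 and 26 UMIs and was 3.94-fold (2.58 to 6.25) higher in LPS than in poly(I:C). More thinly counted were Bcas1 with 25, 30 and 2 UMIs, Cd82 with 9, 20 and 1 and Plaa with 8, 19 and 1. Their LPS to poly(I:C) ratios were 10.8 (2.75 to 93.6), 14.4 (2.31 to 599) and 13.7 (2.18 to 570.2). Astrocyte markers were likewise higher in LPS than in poly(I:C), at 1145 and 399 CPM, and so were oligodendrocyte markers, at 1262 and 464 CPM. The part of such RNA in the ratios of Gpc5 and Bcas1 was not tested.

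Of the leukocyte adhesion genes, 3 of 13 measured were at least 2-fold higher and 2 lower in LPS than in saline, and 0 of 10 higher and 4 lower in poly(I:C). The shares over all genes were 10.8% higher and 12% lower in LPS, near the 2 lower of 13, and 12.4 and 18.9% in poly(I:C). The most counted members were lower in both: Bsg, also the chaperone of lactate carriers, had 752, 97 and 64 UMIs (3703, 756 and 690.2 CPM), 4.90-fold (3.96 to 6.12) and 5.36-fold (4.15 to 7.04) lower, and Alcam, an adhesion molecule of the barrier, had 285, 87 and 43, 2.07-fold (1.62 to 2.66) and 3.03-fold (2.19 to 4.27) lower. The inducible adhesion genes were thinly counted. Vcam1, the ligand of integrin VLA-4, had 3, 25 and 7 UMIs, 13.2-fold (4.02 to 68.2) higher in LPS than in saline. Sele, which encodes E-selectin, had 0, 11 and 1 UMIs and Icam1 had 1, 9 and 2, both too few to be measured and named after their values were seen. Icam2, a resting ligand of leukocyte integrins, had 36, 14 and 1 UMIs, 16.4-fold (2.77 to 667) lower in poly(I:C). Ackr1, a chemokine carrier of venules, had 0, 20 and 0 UMIs, at least 10.5-fold higher in LPS than in saline and at least 4.82-fold higher than in poly(I:C). Its 20 UMIs came from 10 of 134 nuclei (7.46%), and 0.683% of the neuron-rich barcodes of that library held an Ackr1 UMI, against 0.439% in saline and 0.389% in poly(I:C). As a description of the same nuclei, Il1r1 was detected in 7 of those 10 and in 23 of the other 124, and Vcam1 in 4 of the 10 and 9 of the 124, with median depths of 979 and 859.5 UMIs. Other genes were counted over the same split and are not given here, and none of these counts was tested.

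The chemokine and transporter differences could also be read as shares of nuclei. Cxcl9, Cxcl10 or Cxcl11 was detected in 0.391% of saline nuclei, 78.4% of LPS nuclei and 97.8% of poly(I:C) nuclei, and in 0, 2.46 and 5.89% of the neuron-rich barcodes. Neuron-rich barcodes held at least 5 UMIs of the neuronal genes and no UMI of the rule's endothelial markers. They were thus chosen against endothelial RNA, and were deeper (medians 1514, 2892 and 1521 UMIs). After each nucleus was thinned to 500 UMIs, which kept 225, 134 and 98 nuclei and left out 31, 0 and 37, the shares were 0.444, 67.9 and 99.0%. Cxcl10 alone was detected in 28.4% of LPS and 95.6% of poly(I:C) nuclei (20.1 and 96.9% thinned), so most LPS nuclei had no Cxcl10 UMI at this depth, while Cxcl11 was seen in 69.4 and 95.6%. Slco1c1 was detected in 66.0, 3.73 and 1.48% (56.4, 2.24 and 1.02% thinned) and in 0.621, 0.258 and 0.0631% of neuron-rich barcodes. Lcn2 was detected in 0.781, 35.8 and 7.41% of nuclei. No Cxcl10 UMI was found in the 256 saline nuclei, which allows a share of nuclei with a detected UMI of up to 1.43% and sets no limit on nuclei expressing the gene.

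**Figure D4:**
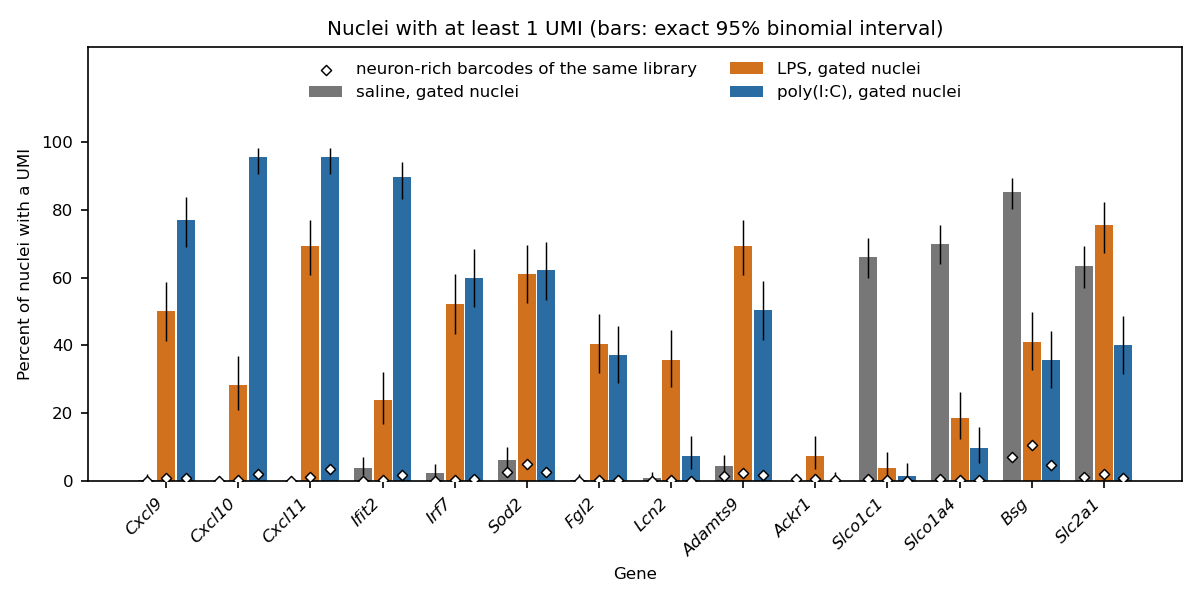
Percentage of endothelial nuclei with at least 1 UMI of named genes in each library (bars, with 95% exact binomial intervals as lines), and the percentage of neuron-rich barcodes of the same library (diamonds), which were chosen to hold no UMI of the rule's endothelial markers. Cxcl11 is at 0, 69.4 and 95.6%, and Slco1c1 at 66.0, 3.73 and 1.48%.

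Thinned to 500 UMIs, a nucleus held a median of 2 UMIs of interferon-stimulated genes in saline, 8 in LPS and 29 in poly(I:C), with 10th to 90th percentiles of 0 to 4, 2 to 14 and 18.7 to 39.3. The 10th percentile in poly(I:C) thus lay above the 90th in LPS, while the LPS and saline ranges overlapped. Blood-brain barrier transporters gave a median of 8, 3 and 2 UMIs (3 to 12, 1 to 5 and 0 to 4), acute-phase genes 0, 5 and 4, and MHC class I genes 1, 5 and 7. The further endothelial genes gave 4, 5 and 4, close to each other. Nuclei are not replicates of a condition, and these spreads describe 3 pools.

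**Figure D5:**
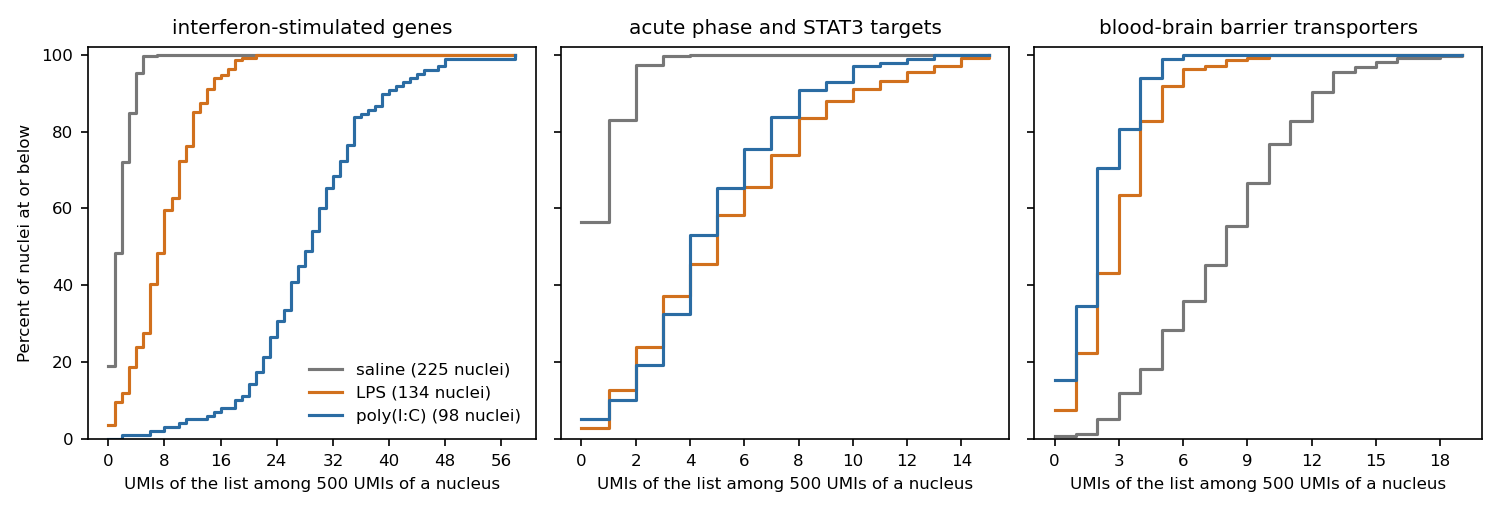
Cumulative percentage of endothelial nuclei, each thinned to 500 UMIs, at or below a given number of UMIs of interferon-stimulated genes, acute-phase genes and blood-brain barrier transporters, with 1 line for each of the 3 libraries. The interferon medians are 2, 8 and 29 UMIs for saline, LPS and poly(I:C), and the transporter medians 8, 3 and 2.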

How the data were processed

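The data are single-nucleus RNA counts of 3 rat brain libraries, each the pooled nuclei of 4 animals. The authors deposited UMI counts per gene and barcode, per the file headers, as whole numbers with no normalization. The submitters' processing notes name Cell Ranger 7.0.0 and the build mRatBN7.2; the gene annotation and cell-calling settings are not given in the sources used here. In all, the tables hold 30560 features with 28370 names, of which 7162 are an identifier only.

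All barcodes of each library entered, and 525 met the rule. CPM is a gene's summed count in a library's endothelial nuclei, divided by their total UMIs and scaled to 1000000. A gene counted as measured with at least 20 UMIs over 2 libraries and as apart when the ratio was at least 2-fold. Ratios and shares have exact 95% Clopper-Pearson intervals, and levels exact Poisson intervals; these cover counting error only, since amplified reads and pooled animals add error that 1 library per condition cannot show. A zero was set to 3 counts where a fold is called "at least". Such a fold allows for no counting error in the other library, so it is not the end of a 95% interval. Shares of nuclei were also computed with each nucleus thinned to 500 UMIs.

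Gene lists (30 of pathways and functions, 13 of other cell types) named 943 genes, of which 874 were found. Lists and members were chosen with earlier results of these data known. Genes that could be named were, for each comparison, the 10 genes highest and lowest by the interval end nearest to 1 (without marker, mitochondrial and other-cell genes), up to 4 members of a list on its median's side and 2 on the other, the genes of the rule, and a set of chemokine, receptor and transporter genes. Abcb1b, Ddx58, Icam1, Ifi27, Il6, Plvap, Rgcc and Sele fall outside this rule and were chosen after their values were seen. Doublets were limited by the rule's neuronal, pericyte and fibroblast genes and, as an alternative, by Scrublet. Promoters came from RefSeq (GRCr8), matched by symbol. Alternatives changed the rule, scaling, minimum count, free RNA and doublets. Scripts were tested on simulated counts and used scanpy 1.11.5, scipy 1.17.1, numpy 2.4.6, pandas 2.3.3 and matplotlib 3.10.9 under Python 3.11.15. The 3 libraries have 0 columns of other series.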

Additional observations from a re-analysis of the deposited data

Results flagged for a closer look

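Abcc4, an efflux pump of organic anions, had a poly(I:C) to saline ratio of 0.326 in endothelial nuclei (94 and 14 UMIs) and of 1.32 (1.21 to 1.44) in all other barcodes, which is the opposite direction. Ptgds, a prostaglandin D synthase, had a ratio of 2.46 in endothelial nuclei (16 and 18 UMIs) and of 0.589 (0.498 to 0.695) outside them. In both cases what stood out was that the 2 populations moved in opposite directions under the same comparison. The difference was not tested, since each condition has 1 library.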

How the results depend on the processing

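Among the ratios that could be recomputed, none of 2-fold or more changed direction; stricter settings left fewer genes to recompute. Of 5128 recomputed ratios of named genes (368 as reported), 4958 stayed within the reported counting interval and 170 did not. The minimum counts of 10 and 50 UMIs cannot change a ratio, so their 368 and 259 ratios were bound to stay within it. The LPS to poly(I:C) ratio of Cxcl1 was 21.6 with at least 500 genes and at most 5% mitochondrial UMIs, where 4.01 is reported. No paired analysis was possible because each condition has 1 library. Scrublet called 0 of 25435 saline barcodes, so it had not worked there.

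The values below differ from those reported. Shares are in percent of barcodes in saline, LPS and poly(I:C); stricter rules keep fewer nuclei, so fewer genes reach the minimum count. With at least 500 genes and at most 5% mitochondrial UMIs, the shares were 0.723 in saline and 0.407 in poly(I:C), 5 NF-kB targets were higher in poly(I:C) than in saline, and 1 transporter was lower in LPS than in poly(I:C). With at least 5 marker UMIs they were 0.594, 0.937 and 0.487, again with counts of 5 and 1. With no neuronal UMI they were 0.507, 0.723 and 0.56. Then 284 genes were lower in LPS, 297 higher and 364 lower in poly(I:C), and 195 higher in LPS than in poly(I:C); 18 interferon genes and 5 NF-kB targets were higher in LPS, 5 NF-kB targets higher in poly(I:C), 2 NF-kB targets higher and 1 transporter lower in LPS than in poly(I:C). With no pericyte or fibroblast UMI the shares were 0.668, 0.794 and 0.567, 18 interferon genes and 5 NF-kB targets were higher in LPS, 457 genes lower and 4 NF-kB targets higher in poly(I:C), and 184 genes and 2 NF-kB targets higher in LPS than in poly(I:C).

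With a minimum of 10 UMIs, 863 genes were higher and 992 lower in LPS, 732 higher and 1377 lower in poly(I:C), and 813 higher and 498 lower in LPS than in poly(I:C); NF-kB targets numbered 24, 15 and 7, and 1 transporter was lower in LPS than in poly(I:C). With a minimum of 50 the gene counts were 166 and 195, 194 and 232, and 54 and 107; interferon genes numbered 11, 32 and 31 (the last lower in LPS) and NF-kB targets 5, 4 and 1. With 2 counts added, 428 genes were lower in poly(I:C) and 181 higher in LPS than in poly(I:C). Without nuclei with immune or red-cell UMIs the shares were 0.684, 0.874 and 0.647, with 17 interferon genes and 9 NF-kB targets higher in LPS and 4 NF-kB targets in poly(I:C).

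Chosen after seeing the data, calls that also needed an interval leaving out 1 gave 452 genes lower in poly(I:C) and 179 higher in LPS than in poly(I:C). Also chosen then, leaving out nuclei with at least 5 haemoglobin or S100a8 and S100a9 UMIs gave a saline share of 0.830 and 4 NF-kB targets in poly(I:C). Depth limits what could be seen: a gene with no UMI may lie at up to 14.8, 23.4 and 32.4 CPM.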

Other observations

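The list of coagulation and fibrinolysis genes included several that were higher in the treated libraries. Of those measured, 5 of 10 were at least 2-fold higher than saline and 1 lower in LPS, and 4 of 8 higher and 0 lower in poly(I:C). The higher ones were Adamts1, Adamts9, Anxa2, Mmrn2 and Tfpi in LPS, and Adamts1, Adamts9, Anxa2 and Serpinb9 in poly(I:C). Adamts1 and Adamts9 cut matrix proteoglycans and are also counted among the higher matrix genes above, so the 2 lists are not independent. The shares over all genes were 10.8% higher and 12% lower in LPS, near the 1 lower of 10, and 12.4 and 18.9% in poly(I:C). Anxa2, a receptor that helps to form plasmin, had 8, 53 and 22 UMIs in saline, LPS and poly(I:C), 10.5-fold (4.95 to 25.5) and 6.02-fold (2.58 to 15.6) higher, and the coagulation inhibitor Tfpi had 32, 68 and 24 UMIs, 3.36-fold (2.18 to 5.29) higher in LPS.

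Genes linked to cell death and early response also differed. Of the cell death genes, 5 of 9 measured were at least 2-fold higher than saline in LPS and 6 of 10 in poly(I:C), with 0 lower in either, and set against each other 1 of 12 was higher and 4 lower in LPS. Over all genes 10.8% were higher than saline in LPS and 12.4% in poly(I:C), with 12 and 18.9% lower. Between the treatments 11% of all genes were higher in LPS, near the 1 of 12, and 9.55% lower. Casp4, the inflammatory caspase that senses LPS inside cells, had 7, 10 and 29 UMIs, 9.07-fold (3.89 to 24.5) higher in poly(I:C) than in saline. Atf3, a stress-induced transcription factor, had 6, 7 and 30 UMIs, 10.95-fold (4.48 to 32.2) higher in poly(I:C), and Junb, an early-response transcription factor, had 9, 41 and 19, 7.21-fold (3.45 to 16.9) higher in LPS. Nr3c1, the glucocorticoid receptor, had 87, 27 and 51 UMIs, 2.04-fold (1.31 to 3.26) lower in LPS. Of the LPS nuclei, 48 held an Lcn2 UMI, of which 43 also held a Slc2a1 UMI, against 58 of the 86 without Lcn2, at median depths of 868.5 and 861 UMIs. These are counts within 1 pool and were not tested, and other pairs of genes that were counted in the same way are not given.

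Lists with few measured members gave small counts. They are to be read against 10.8% higher and 12% lower over all genes in LPS, and 12.4 and 18.9% in poly(I:C). Arterial genes had 1 of 5 higher and 1 lower in LPS than in saline, and 0 of 2 higher and 1 lower in poly(I:C), and venous genes 2 of 5 higher and 0 lower in LPS and 1 of 4 higher and 1 lower in poly(I:C). Of the prostaglandin and lipid mediator genes, 2 of 5 were higher and 1 lower in LPS, and 4 of 5 higher and 1 lower in poly(I:C). Immediate early genes had 3 of 8 higher in LPS and 5 of 10 in poly(I:C), with 0 lower. Genes of proliferation had 7, 4 and 7 UMIs in all, T and NK cell markers 11, 2 and 2, and platelet markers 3, 0 and 1.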
